A study of Mus musculus with 22 samples.

Results

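The loci of 9 genes that mark stromal progenitors were examined in chromatin accessibility profiles of adipocyte nuclei from mouse epididymal adipose tissue (epiAT). The genes were Pdgfra, Pdgfrb, Dpp4, Pi16, Cd34, Ly6a, Dcn, Fbn1 and Cd55, 9 of the 21911 protein-coding genes considered. Each locus was the gene in the GENCODE vM21 annotation of the mouse build GRCm38 with 20 kb on each side, and every peak of the 22 libraries that overlapped it was taken. The genes were chosen by name as progenitor markers, with earlier results of these data known, and no threshold on a value was used.

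Mice were AdipoERCre x NuTRAP males, in which tamoxifen turns on an adiponectin-driven Cre and adipocyte nuclei come to carry a biotin tag. The tag was used to pull the nuclei down from frozen tissue for ATAC-seq, in which a transposase cuts open chromatin, and each library came from 1 animal. C mice were 18 weeks old and on low-fat chow, and H mice of that age had eaten a high-fat diet for 12 weeks. HC mice were 26 weeks old, with 12 weeks of high-fat diet and then 8 weeks of chow, and CC_s mice were their controls. HH mice were 31 weeks old, with 25 weeks of high-fat diet, and CC_l mice were their controls. HHC mice were 39 weeks old, with 25 weeks of high-fat diet and then 8 weeks of chow, and CCC mice were their controls. CC_l and CCC held 2 libraries each and the other groups 3. The chow of the last 8 weeks was another product than the earlier chow, and CC_s and CCC controls received it too. The labels mark the shorter and longer diets as short and long sets, each with its own controls, so duration and anything else that differed between the sets cannot be told apart. The tag rests on the Cre, and nuclei of another type that came down with the beads would be in the libraries too. In such pooled nuclei, fewer nuclei of a type and less signal per nucleus cannot be told apart.

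Adipocytes arise from fibroblast-like progenitors that lie around vessels and in the connective tissue of the depot. Pdgfra and Pdgfrb encode receptors for platelet-derived growth factors and label these progenitors. Dpp4, Pi16 and Cd55 are used to mark an early, multipotent population in the interstitium, and Cd34 and Ly6a, which encodes Sca-1, are used to sort progenitors by flow cytometry. Dcn and Fbn1 encode matrix proteins, decorin and fibrillin-1, that fibroblasts secrete. A gene that a cell no longer transcribes may keep open chromatin at its start or in its introns.

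The lists held 40528 to 60523 peaks per library, which covered 128 to 299 Mb. They give signal and no read counts, so sequencing depth was not known. The adipocyte label was checked on 12 adipocyte marker genes, and all 12 had a promoter peak in each of the 22 libraries. The median maximum signal of a library's peaks ran from 17 to 107, and 5 libraries stood under 40. These were HC 3 at 17, HHC 3 at 18, HH 1 at 30, CCC 2 at 33 and HHC 1 at 34. In these libraries the adipocyte promoters held 0.0712 to 0.453% of all signal, against 0.381 to 0.623% in the other 17. The value without these 5 low-signal libraries is given beside many, but not all, of the results that moved when they were left out.

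The starts of 4 of the genes are printed first because they show the range found, from a promoter with a peak in every library to one with a peak in few. Each is the 250 bases before the RefSeq start, 5′ to 3′ on the strand of the gene, in build GRCm38.p6. Capitals mark matches to the letters of 5 motifs searched on both strands, namely TATAAA for the TATA box, CCAAT for the CCAAT box, GGGCGG for the GC box, TGANTCA for AP-1 and TTGCNNAA for C/EBP. Of 32851 RefSeq promoters of this length, 12.4% held TATAAA, 33.8% CCAAT, 32.7% GGGCGG, 6.75% TGANTCA and 9.56% TTGCNNAA. The table of promoters held 6 of the 9 genes and not Pdgfrb, Ly6a or Dcn.
Cd55, chr1:130462745-130462994, minus strand: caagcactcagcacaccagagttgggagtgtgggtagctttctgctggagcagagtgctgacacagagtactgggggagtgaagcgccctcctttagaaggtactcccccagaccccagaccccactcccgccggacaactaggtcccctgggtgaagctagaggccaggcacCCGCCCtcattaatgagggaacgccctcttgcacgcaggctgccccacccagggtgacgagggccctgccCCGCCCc
Pdgfra, chr5:75152001-75152250, plus strand: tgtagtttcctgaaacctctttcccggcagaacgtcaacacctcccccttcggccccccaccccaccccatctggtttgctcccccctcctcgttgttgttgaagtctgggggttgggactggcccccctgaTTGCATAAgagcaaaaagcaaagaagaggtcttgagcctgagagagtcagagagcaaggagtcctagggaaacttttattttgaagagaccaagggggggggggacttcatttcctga
Dpp4, chr2:62412232-62412481, minus strand: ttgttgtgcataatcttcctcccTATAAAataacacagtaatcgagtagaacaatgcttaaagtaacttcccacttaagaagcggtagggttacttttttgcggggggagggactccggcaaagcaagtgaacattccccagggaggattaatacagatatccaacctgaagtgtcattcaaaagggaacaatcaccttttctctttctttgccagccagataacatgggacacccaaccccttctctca
Cd34, chr1:194938571-194938820, plus strand: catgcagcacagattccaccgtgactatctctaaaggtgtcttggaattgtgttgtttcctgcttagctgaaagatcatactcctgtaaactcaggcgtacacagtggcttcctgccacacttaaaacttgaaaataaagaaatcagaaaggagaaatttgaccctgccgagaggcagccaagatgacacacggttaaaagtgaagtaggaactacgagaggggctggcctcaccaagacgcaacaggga
A peak lay over these bases of Cd55 in 22 libraries, of Dpp4 in 16, of Pdgfra in 6 and of Cd34 in 6. The Cd55 stretch was 64% G and C and held 2 matches to GGGCGG, read here as its reverse complement, against a median of 52.4% G and C over all promoters. The Dpp4 and Cd34 stretches were 43.6% and 46.4% G and C. Pdgfra, at 54.4%, held 1 match to TTGCNNAA and Dpp4 1 match to TATAAA. A match is a description of letters only.

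A promoter peak was a peak within 2000 bp of any start site of the gene. Pdgfra, Dcn and Cd55 had one in all 22 libraries, and every gene of the 9 had one in at least 4. Over all protein-coding genes, 43.6% had a promoter peak in all 22 libraries and 22.7% in none. Pdgfrb had a promoter peak in 17 libraries, Dpp4 in 16, Ly6a in 9, Cd34 in 6, Pi16 in 5 and Fbn1 in 4. Among the strongest 20000 peaks of each library, Cd55 kept its peak in 22 libraries, Pdgfra in 19 and Dcn in 10, and the other 6 genes had one in 0 to 4.

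**Figure D1:**
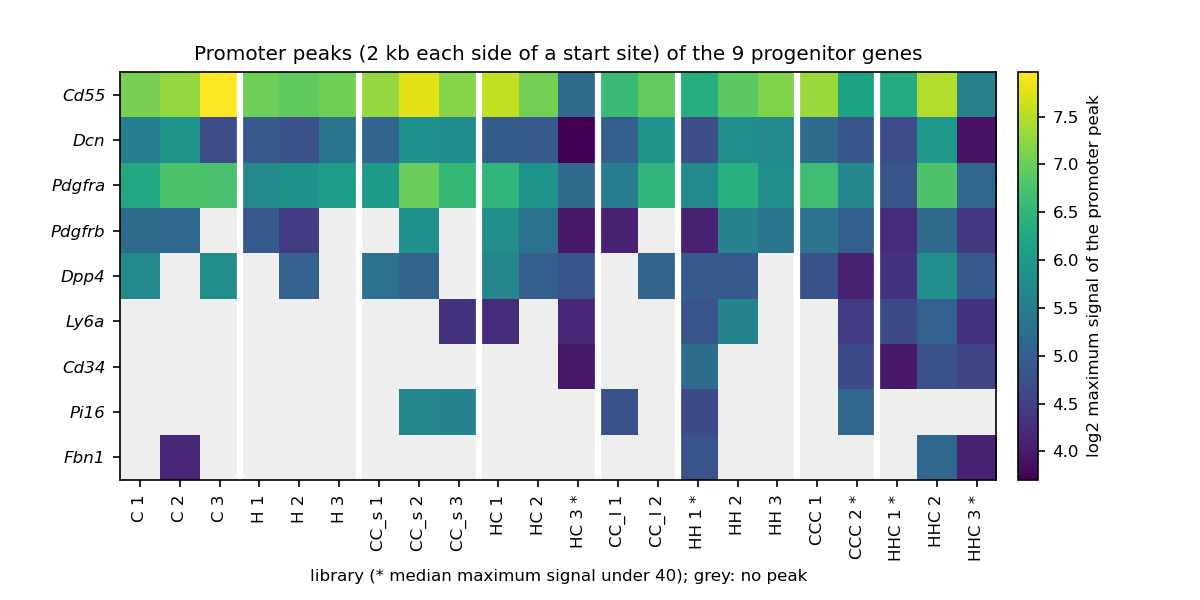
Maximum signal, on a log2 scale, of the promoter peak of each of the 9 genes (rows) in each of the 22 libraries (columns, by group), with grey where no promoter peak was listed and an asterisk at the 5 libraries of median maximum signal under 40. Pdgfra, Dcn and Cd55 are filled in all 22 columns, and 5 of the 6 Cd34 entries fall in columns with an asterisk.

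Cd55 encodes decay-accelerating factor, which protects cells from complement, and its promoter peak was the strongest of the 9. Its maximum signal was 136, 156 and 250 in C and 130, 121 and 133 in H, and over all 22 libraries it ran from 36 in HC 3 to 250 in C 3. The base of highest coverage lay within 93 bp before to 123 bp after the 5′ end of the gene in all 22. The peak thus sat on the start itself in lean, obese and formerly obese mice alike.

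Pdgfra encodes the alpha receptor, the most used marker of the adipocyte lineage before differentiation. The maximum signal of its promoter peak was 77, 109 and 107 in C, 52, 59 and 67 in H, and 45 to 127 in the other control libraries. It was 91, 60 and 36 in HC, 53, 85 and 56 in HH, and 28, 109 and 35 in HHC. All 3 H values lay under all 3 C values, but maximum signal is not normalised and the median over all peaks of a library was also lower in H, at 47 to 64, than in C, at 73 to 107. The highest coverage did not lie on the 5′ end. In 14 libraries it lay 4014 to 4112 bp inside the gene, in 7 libraries 2066 to 2136 bp inside, and in HHC 1 it lay 4939 bp inside. The gene has annotated start sites up to 3607 bp inside its 5′ end.

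Dcn had a broad, low promoter region in all 22 libraries, with maximum signals of 13 to 63. The place of its highest coverage varied between libraries. It lay about 1.32 kb before the 5′ end in 8 libraries, within 73 bp of it in 4, about 6.66 kb inside the gene in 8, and at 1.89 and 2.73 kb in the last pair. No position was thus shared by most libraries.

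Dpp4 encodes a cell surface peptidase. Its promoter peak was listed in 2 of 3 C libraries, 1 of 3 H, 2 of 3 CC_s, 3 of 3 HC, 1 of 2 CC_l, 2 of 3 HH, 2 of 2 CCC and 3 of 3 HHC libraries. The maximum signal there was 17 to 56, and in 15 of 16 libraries the highest coverage lay 276 to 591 bp inside the gene. Pdgfrb, the receptor of pericytes and of perivascular progenitors, had a promoter peak in 12 of the 17 libraries of higher signal and in all 5 low-signal libraries, with maximum signals of 16 to 58. For both genes the groups back on chow had a promoter peak in 6 of 6 libraries, against 7 of 10 control libraries for Dpp4 and 6 of 10 for Pdgfrb. HC 3, HHC 1 and HHC 3 are among the 6, and without the low-signal libraries the counts were 3 of 3 against 6 of 9 for Dpp4 and 5 of 9 for Pdgfrb.

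The other 4 promoters were mostly closed at this threshold. Cd34, a sialomucin of progenitors that endothelial cells share, had a promoter peak in HC 3, HH 1, CCC 2 and all 3 HHC libraries, with maximum signals of 16, 37, 25 and 16, 27 and 24. Of the 17 libraries of higher signal only HHC 2 had it. Ly6a had a promoter peak in 5 of 5 low-signal libraries and in 4 of 17 others, CC_s 3, HC 1, HH 2 and HHC 2. Pi16 had one in 5 libraries, CC_s 2, CC_s 3, CC_l 1, HH 1 and CCC 2, and Fbn1 in 4, C 2, HH 1, HHC 2 and HHC 3.

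Counted per library, 7 to 9 of the 9 promoters had a peak in the low-signal libraries (median 8) and 3 to 8 in the others (median 5). Over all promoters the shares with a peak were 56.7 to 61.8% (median 59.5%) in the low-signal libraries and 57.1 to 63.4% (median 60.7%) in the others, so that the order was the opposite there. HHC had 7, 8 and 8 of 9 and CCC 5 and 8. HHC 2, with a median maximum signal of 77, was the only library of higher signal with 8. HC had 6, 5 and 7 of 9 against 4, 6 and 5 in CC_s, HH 9, 6 and 4 against 5 and 4 in CC_l, and H 4, 5 and 3 against 5, 5 and 4 in C. The groups of all 4 pairs overlapped, and no pair of this size can give an exact two-sided p under 0.1. The share of library signal at the 9 promoters was 0.00902 to 0.0101% in HC against 0.00719 to 0.00829% in CC_s. It was 0.0114 to 0.0157% in HHC against 0.00681 to 0.00998% in CCC. H and HH overlapped their controls in this share, the low-signal libraries stood at 0.00998 to 0.0171%, and no pair was tested on it.

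Markers of other cell types were counted in the same libraries. Of 12 endothelial genes, all 12 had a promoter peak in HH 1, 8 in HHC 3, 7 in CCC 2, 6 in HC 3 and 4 in HHC 1, against 3 to 6 in the 17 libraries of higher signal, so that 3 of the 5 low-signal libraries lay above that range. Pecam1, Cdh5, Emcn, Vwf and Tie1 had none in those 17, while Esam, Cldn5 and Egfl7 had one in all 22 libraries. Of 12 macrophage genes 4 to 8 had a promoter peak in the low-signal libraries and 3 to 6 in the others, with Fcgr1 at 0 everywhere and Mrc1, Ptprc, Itgam, Tyrobp and C1qa at 0 in the 17. Mesothelial genes had 2 to 8 of 12 against 1 to 6, and lymphocyte genes 1 to 3 of 12 against 1 to 4. The share of library signal at the endothelial promoters was 0.0144 to 0.0521% in the low-signal libraries, with the highest value in HH 1, and 0.0178 to 0.0502% in the others. By group this share was 0.0292 to 0.0459% in C, 0.0362 to 0.0422% in H, 0.0178 to 0.0502% in CC_s, 0.0144 to 0.0369% in HC, 0.0239 to 0.0299% in CC_l, 0.0443 to 0.0521% in HH, 0.0231 to 0.0343% in CCC and 0.0182 to 0.0287% in HHC. The HH range of this share lay above that of CC_l without overlap. Shares of 3 other types were lower without overlap in some pairs, in obese mice and in part also after weight loss. With 2 or 3 libraries per group such a lack of overlap is a description and was not tested. The mesothelial share was 0.00222 to 0.00509% in H against 0.0075 to 0.0109% in C, and 0.00143 to 0.0062% in HH against 0.00811 to 0.0111% in CC_l. The lymphocyte share was 6.74e-04 to 0.0015% in H against 0.00167 to 0.00712% in C, and 8.77e-04 to 0.00162% in HH against 0.00222 to 0.00567% in CC_l. The macrophage share was 0.0102 to 0.0183% in H against 0.0203 to 0.0368% in C and 0.0124 to 0.0162% in HC against 0.0195 to 0.0442% in CC_s, while HH, at 0.0132 to 0.0147%, overlapped CC_l, at 0.0117 to 0.0162%. After weight loss the mesothelial share was 0.0105 to 0.032% in HHC against 0.00605 to 0.00945% in CCC, which is higher, and the lymphocyte share 0.00151 to 0.00235% against 0.00537 to 0.00544%, which is lower. The part of these shares in the differences between groups given next was not tested. The part of other cell types, and of the lower signal, in the extra promoter peaks of Cd34, Ly6a, Dpp4 and Pdgfrb was likewise not tested.

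A list of 24 other progenitor genes was read beside the 9. A promoter peak in all 22 libraries was found for 13 of 24 (54.2%), against 3 of 9 (33.3%) and 43.6% of all genes. The 13 were the collagens Col1a1, Col1a2 and Col3a1, the preadipocyte regulators Zfp423 and Ebf2, and Sema3c, Anxa3, Creb5, Gsn, F3, Clec11a, Fmo2 and Cd81. Dlk1, which encodes preadipocyte factor 1, had none in any library, and Mfap5 had one in 1 library. Wnt2, with 4 libraries, had them only among the low-signal libraries, while Lum, also with 4, had none of its peaks there.

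The covered share of a locus, which allows for its length, was highest at Pi16, with a median of 31% over the 22 libraries (18.7 to 64.3%), and lowest at Fbn1, with 4.86% (1.4 to 9.05%). Pdgfrb had 20.7%, Cd34 11%, Dcn 9.91%, Ly6a 8.78%, Dpp4 7.68%, Cd55 7.48% and Pdgfra 7.32%. Pi16 and Pdgfrb stood at the percentiles 79.3 and 67.8 of all 21911 loci and the other 7 between 34.5 and 50.9. Each median lay within the range of the gene next below it over the 22 libraries, so that neighbours overlapped over libraries. Within a library the order was fixed for 1 pair of neighbours, Pdgfrb, which was above Cd34 in 22 of 22 libraries. Pi16 was above Pdgfrb in 19 and Pdgfra above Fbn1 in 18, and the neighbours from Cd34 to Pdgfra were in this order in 10 to 15 libraries.

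At several loci much of the signal lay outside the regions over the gene's own start sites. At Pdgfra and Cd55 the regions over the gene's own start sites held a median of 100% of the locus signal, and at Dcn 79.9%. At Pi16 and Ly6a regions over other genes' promoters held a median of 100%. The region of the Pi16 locus called in all 22 libraries lay over the promoter of Mtch1, at chr17:29324727-29351093. A further region there, over Gm10045 at chr17:29297490-29306942, was called in 17. The Ly6a locus held a region at chr15:74986505-74994079, over the starts of Gm37042 and Gm8000. Ly6a lies among near-identical Ly6 genes, where reads may be split between copies. At Cd34 93.6% of the signal lay at chr1:194974035-194999978, a region over A330023F24Rik and Gm16897 of which 27.9% lies inside the locus. Locus values of Pi16 and Cd34, and of Ly6a in most libraries, are therefore mainly signal of regions over other genes' promoters. At Ly6a the region over its own start sites held up to 66.3% of the locus signal of a library. Which gene a region acts on was not tested.

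At Fbn1 a median of 100% of the signal, at Dpp4 85.8% and at Pdgfrb 75.6% lay in regions over no promoter. Of the 59 regions of the 9 loci, 9 were called in all 22 libraries, 1 per gene, and 15 in a single library, of which 9 were in HHC 3. Of the 104657 regions of the genome, every library had 12395, and 48481 appeared in no more than 1 list.

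**Figure D2:**
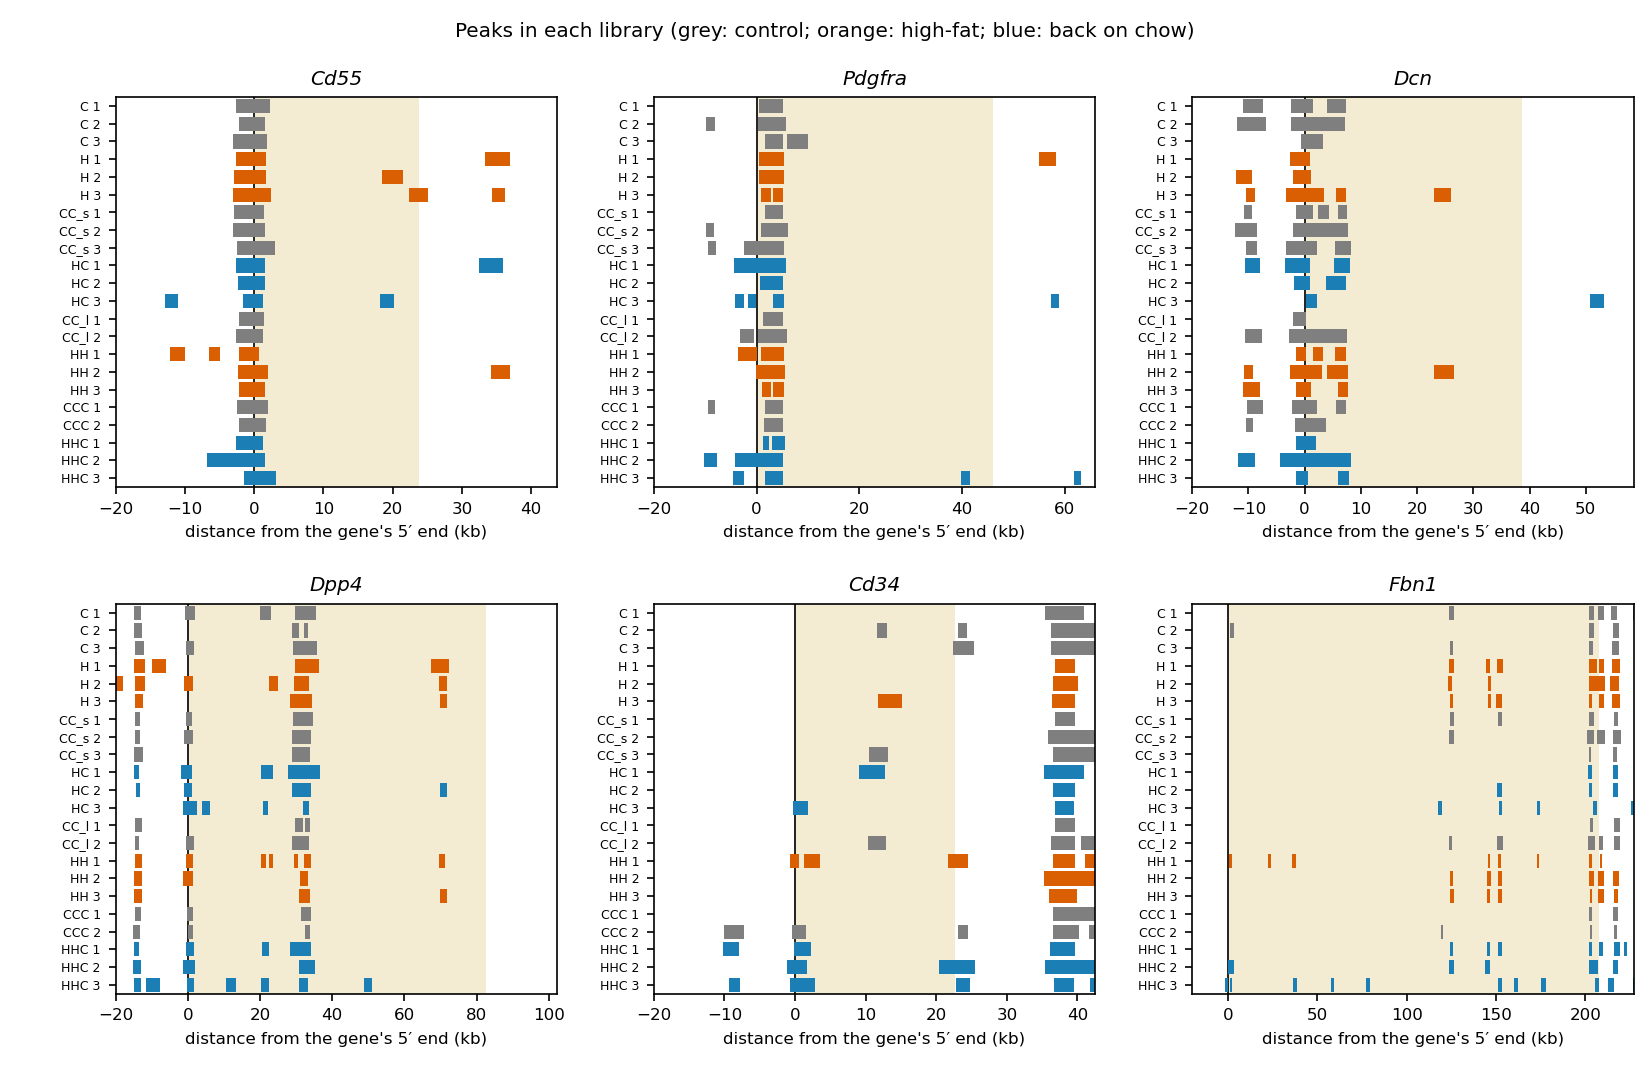
Peaks of each library (rows, grey for controls, orange for the high-fat diet, blue for mice back on chow) by distance from the 5′ end of the gene in kb, along the direction of transcription, at Cd55, Pdgfra, Dcn, Dpp4, Cd34 and Fbn1, with the gene body shaded. Cd55 shows 1 column of peaks at the start in all 22 libraries, Dpp4 a column near 32.8 kb in all 22, and Fbn1 a column near 203 kb in 20 of 22 and one near 146 kb in orange and blue rows only.

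For each of Dpp4 and Fbn1, the intronic region called in all 22 libraries and the one called mainly on the high-fat diet are shown as 150 bases around the median base of highest coverage, on the plus strand of GRCm38.p6. Capitals again mark matches to the 5 motifs, and introns are numbered in the transcript with the most exonic bases. The number of libraries is that of the whole region and not of the printed bases. In the Fbn1 intron 63 region the peak lay 204.47 to 206.29 kb from the 5′ end in HC 3 and 205.37 to 207.49 kb in HHC 3. Neither of these peaks reached the printed bases.
Dpp4 intron 5, chr2:62379347-62379496, called in 22 libraries: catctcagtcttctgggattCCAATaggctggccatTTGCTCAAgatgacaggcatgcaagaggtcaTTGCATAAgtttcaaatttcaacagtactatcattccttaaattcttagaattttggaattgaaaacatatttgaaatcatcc
Dpp4 intron 23, chr2:62341208-62341357, called in 6 libraries: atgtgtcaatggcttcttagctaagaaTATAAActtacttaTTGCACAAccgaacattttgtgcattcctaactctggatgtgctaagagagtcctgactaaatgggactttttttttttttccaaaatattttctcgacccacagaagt
Fbn1 intron 63, chr2:125304872-125305021, called in 22 libraries: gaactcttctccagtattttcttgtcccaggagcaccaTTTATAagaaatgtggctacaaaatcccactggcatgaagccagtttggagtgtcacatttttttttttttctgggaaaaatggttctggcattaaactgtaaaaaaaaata
Fbn1 intron 28, chr2:125361782-125361931, called in 8 libraries: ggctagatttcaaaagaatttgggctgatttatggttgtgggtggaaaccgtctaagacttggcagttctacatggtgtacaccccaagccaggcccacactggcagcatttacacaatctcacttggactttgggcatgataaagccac
The Dpp4 intron 5 stretch held 1 match to CCAAT and 2 to TTGCNNAA, and the intron 23 stretch 1 each to TATAAA and TTGCNNAA. Fbn1 intron 63 held 1 match to TATAAA and Fbn1 intron 28 none.

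The region in Dpp4 intron 5, at chr2:62375722-62384329, had its highest coverage 32787 to 32989 bp from the 5′ end in all 22 libraries. The region in Fbn1 intron 63, at chr2:125296833-125307213, had it near 203 kb in 20 of 22 libraries. Pdgfrb had a region inside the gene in all 22 libraries too, at chr18:61051227-61081356. Its highest coverage lay at no fixed place, from 9305 to 29718 bp from the 5′ end, with 11 libraries near 29.7 kb. These 3 genes, whose promoters were not open in every library, thus each kept a region inside the gene open in lean, obese and formerly obese mice. Dpp4 also had a region 13880 bp upstream of its 5′ end, at chr2:62423953-62427495, in 21 libraries, all but HC 3, with the highest coverage at the same place in all 21 (within 250 bp). Its maximum signal was 185, 177 and 410 in C and 114, 133 and 179 in H, and it ran from 18 in HHC 3 to 410 in C 3. Fbn1 had a further region in intron 13, at chr2:125381523-125384942, in 12 libraries, 5 of 6 of H and HH, 2 of 6 of HC and HHC and 5 of 10 controls.

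The region in Fbn1 intron 28, at chr2:125360670-125364321, was called in all 6 libraries of mice on the high-fat diet, in none of the 10 control libraries, and in 2 of the 6 libraries of mice back on chow, HHC 1 and HHC 2. Its total signal was 23029, 20729 and 18847 in H, 10224, 28081 and 25005 in HH, and 19906 and 31666 in the 2 HHC libraries, and the highest coverage lay 146112 to 146211 bp from the 5′ end in all 8. Of all 104657 regions 205 (0.196%) were called in all 6 libraries of H and HH and in none of the 10 controls. The lowest total signal listed was 16771 to 19534 in H and 9995 to 17767 in HH, so that several of these values lay close to the threshold of their library. On the rank-mapped total signal, where a region below the last rank takes a floor value, the difference over both durations was 0.23 (SE 0.10), and with the maximum signal in place of the total 1.07 (SE 0.20). All 10 controls sit at the floor and the region was picked for being listed in H and HH and in no control, so that these differences describe that pattern and are no test of it.

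A region in Dpp4 intron 23, at chr2:62339856-62344858, was called in 5 of 6 libraries of H and HH, all but HH 2, in HC 2, and in none of the 10 controls. Over the genome 629 regions (0.601%) were called in at least 5 of the 6 and in no control. Its difference over both durations was 0.44 (SE 0.18, limma, adjusted p = 0.134), which did not pass and likewise restates the pattern. The highest coverage lay 70941 to 70987 bp from the 5′ end in 5 of its 6 libraries. Both intronic regions were picked from 59 after their values were seen. The strongest region over no promoter was at chr10:97467263-97472801 for Dcn, upstream of the gene, in 14 libraries. It lay downstream of the gene for Cd34, at chr1:194959205-194964277 in 6 libraries, for Cd55, at chr1:130425744-130430211 in 4, and for Pdgfra, at chr5:75207305-75211065 in 2. That of Cd55 was listed in H 1, H 3, HC 1 and HH 2, and how many regions of the genome show such a pattern was not counted.

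To compare groups, the total signal of the peaks over a locus was summed, and each library was rank-mapped, so that every library had the same distribution of values and differences are in log2 locus signal. A locus was called at an adjusted p under 0.05, Benjamini-Hochberg over all loci tested, with a difference above 1 on this scale. All 9 loci were tested in each comparison.

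H was compared with C to show the shorter obesity. The Cd34 locus was lower in H, and it was the 1 locus of the 9 that was called, against 5.73% of all loci. That share itself fell to 1.12% without C 2, 1.46% without H 1, 1.3% without H 2 and 1.99% with the maximum signal. At an unadjusted p under 0.05 there were 3 of 9, Cd34, Cd55 and Fbn1, against 31.3% of all loci. The median difference of the 9 was 0.06 and that of all loci -0.01, with 6 of 9 higher in H. Neither count stood clear of its background.

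The log2 locus signal of Cd34 was 17.37, 17.48 and 17.53 in C and 16.16, 16.18 and 16.73 in H. The groups did not overlap, and the difference was -1.10 (SE 0.20, 95% interval -1.58 to -0.62, limma, adjusted p = 0.0233). The neighbouring region at chr1:194974035-194999978, which held most of the locus signal, differed by -0.66 (SE 0.14, adjusted p = 0.0214). With a flank of 5 kb the difference at Cd34 was -0.15 (adjusted p = 0.699), and Cd34 itself had no promoter peak in any C or H library. The call was also lost when any 1 of C 2, C 3, H 1 and H 2 was left out, with differences of -1.01 to -1.09 and adjusted p of 0.0609 to 0.094. With the maximum signal in place of the total the difference was -0.29 (adjusted p = 0.2). In the longer obesity HH stood at 18.10, 16.80 and 16.37 and CC_l at 16.87 and 17.17, and the 2 effects differed by 1.17 (SE 0.57, limma, adjusted p = 0.928), which did not pass. HH 1, the highest, is a low-signal library, with all 9 promoters of the set and all 12 endothelial promoters listed. The part of these traits in its Cd34 value was not tested.

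HH was compared with CC_l for the longer obesity. None of the 9 loci was called, against 0.00579% of all loci, a share that was 0.944% without the low-signal library HH 1. At an unadjusted p under 0.05 there was 1 of 9, Fbn1, against 12.1%. The median difference was 0.39 and that of all loci -0.03, with 7 of 9 higher in HH, and without the low-signal library HH 1 it was 0.12, with 6 of 9 higher. Over both durations none of the 9 was called, against 4.76% of all loci, and 2, Fbn1 and Cd55, had an unadjusted p under 0.05, against 31.6%.

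**Figure D3:**
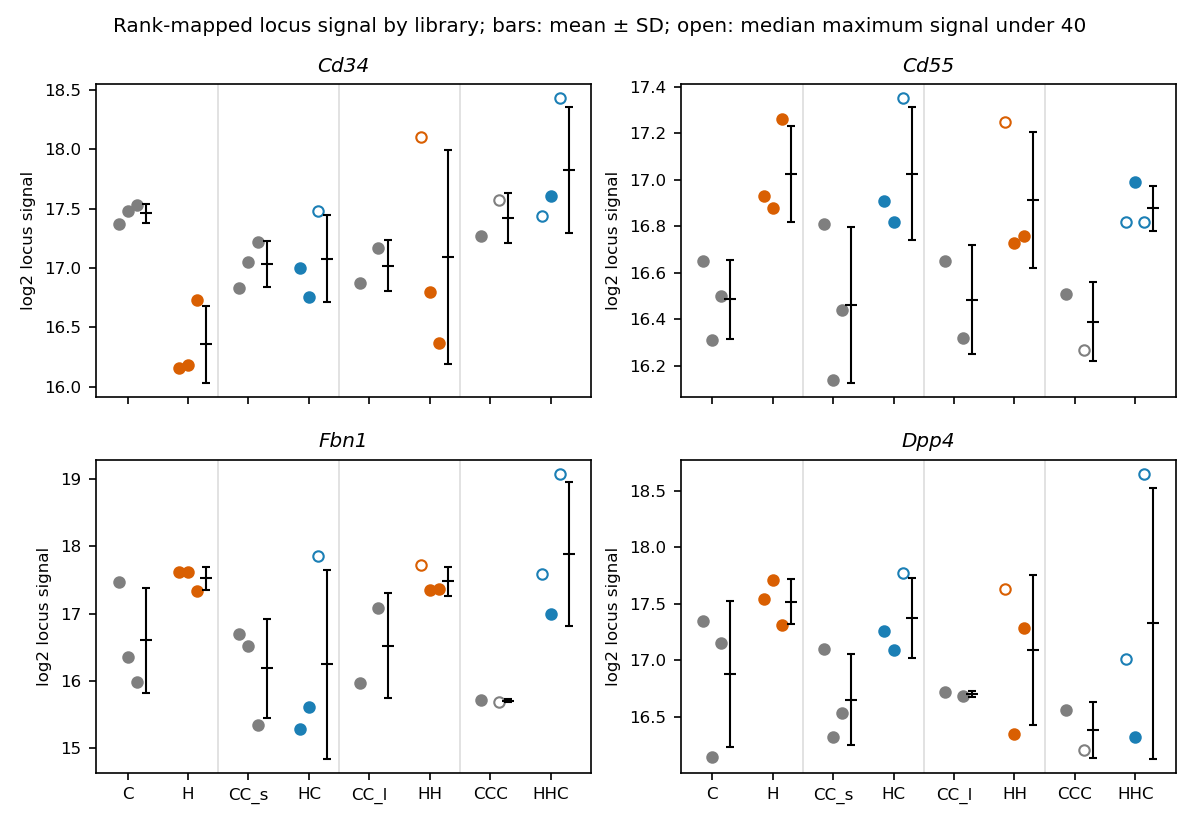
Log2 locus signal of Cd34, Cd55, Fbn1 and Dpp4 in each library of the 8 groups (points, open for the 5 low-signal libraries) with the group mean and SD (bars). The C values of Cd34 lie at 17.37 to 17.53 over H values of 16.16 to 16.73, and at Cd55 every treated library lies over every control library of its pair.

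Fbn1 had higher values on the high-fat diet but did not pass the test. Its log2 locus signal was 17.47, 16.35 and 15.98 in C and 17.61, 17.62 and 17.33 in H, and only C 1 reached the H libraries. It was 15.97 and 17.08 in CC_l and 17.72, 17.35 and 17.36 in HH, which did not overlap. Over both durations the difference was 0.93 (SE 0.29, 95% interval 0.29 to 1.58, limma, adjusted p = 0.0561), and without C 1 it was 1.15 (adjusted p = 0.0132), which is past the threshold. The number of Fbn1 peaks was 6, 4 and 6 in H and 8, 6 and 6 in HH, against 5, 3 and 3 in C and 2 and 5 in CC_l. These values take in the introns and also a region at chr2:125287999-125295128, with its highest coverage 9870 bp downstream of the gene, which was called in 20 libraries.

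At Cd55 the values were 16.65, 16.31 and 16.50 in C and 16.93, 16.88 and 17.26 in H, and 16.65 and 16.32 in CC_l and 17.25, 16.73 and 16.76 in HH. After weight loss they were 16.91, 16.82 and 17.35 in HC against 16.81, 16.14 and 16.44 in CC_s, and 16.82, 16.99 and 16.82 in HHC against 16.51 and 16.27 in CCC. In each of the 4 pairs every treated library was above every control library, which held for 133 of the 16555 loci tested in all 4 pairs (0.803%). The difference was 0.48 over both durations of obesity (SE 0.16, 95% interval 0.13 to 0.84, limma, adjusted p = 0.0682) and 0.53 over both weight losses (SE 0.20, 95% interval 0.08 to 0.97, adjusted p = 0.329). Both are under the size required and neither passed the test. The promoter region alone differed by 0.34 in H, 0.31 in HC, 0.25 in HH and 0.58 in HHC, against 0.54, 0.56, 0.43 and 0.49 for the whole locus. At the promoter HC 1 and HC 3, at 16.70 and 16.68, lay under CC_s 1, at 16.76, and HH 2, at 16.55, under CC_l 1, at 16.66, so that the groups overlapped there in 2 of the 4 pairs. HHC had 1 peak at the locus in every library, H had 2, 2 and 3, HC 2, 1 and 3, HH 3, 2 and 1, and C, CC_s, CC_l and CCC 1 in every library.

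Dpp4 stood at 17.35, 16.14 and 17.15 in C and 17.54, 17.71 and 17.31 in H, and over both durations its difference was 0.52 (SE 0.28, limma, adjusted p = 0.235). Pdgfra differed by 0.21 (95% interval -0.33 to 0.76), Pdgfrb by 0.30 (-0.34 to 0.94), Pi16 by -0.06 (-0.36 to 0.23), Ly6a by 0.26 (-0.59 to 1.10) and Dcn by 0.25 (-1.15 to 1.66). Cd34 differed by -0.52 (-1.16 to 0.12). Without HH 1 Pdgfra differed by 0.03, Pdgfrb by 0.14, Ly6a by -0.03, Dcn by 0.40, Dpp4 by 0.38 and Cd34 by -0.77 (adjusted p = 0.0134), the last still under the size required. The intervals over all libraries hold differences in both directions, so a change of either sign within them was not detectable here.

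HC was compared with CC_s and HHC with CCC to ask what remained after weight loss. In HC none of the 9 loci was called, against 0% of all 16943 loci, and 0 of 9 had an unadjusted p under 0.05, against 8.98% (1522 loci). In HHC none was called, against 0% of 17388, and 1 of 9, Fbn1, had an unadjusted p under 0.05, against 4.05% (704 loci). Over both durations none was called, against 0.0438%, and 2, Cd55 and Pdgfrb, had an unadjusted p under 0.05, against 13.4%. Most of the 9 were higher, with 8 of 9 higher in HC, 7 of 9 in HHC and medians of 0.46 and 0.69, against -0.02 and -0.04 over all loci. In HC this rested on the low-signal library HC 3, without which 5 of 9 were higher and the median was 0.05, against 0.03 over all loci. In HHC the median was 0.28 without HHC 3, with 7 of 9 higher, and with all 5 low-signal libraries left out HHC and CCC hold 1 library each, so that the pair could not be fitted. Over both durations 7 of 9 were higher with a median of 0.57, which became 6 of 9 and 0.39 without HC 3 and HHC 3, and 8 of 9 and 0.26 without all 5.

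The widest gap was at Fbn1, with 15.72 and 15.69 in CCC and 17.58, 16.99 and 19.07 in HHC. The groups did not overlap, and the difference was 2.17 (SE 0.65, limma, adjusted p = 0.856). HC, at 15.28, 15.61 and 17.85, did not stand above CC_s, at 16.70, 16.52 and 15.34, except in HC 3. Over both durations the difference was 1.12 (SE 0.55, adjusted p = 0.411), and without the 5 low-signal libraries it was 0.26. The 2 weight losses differed at Fbn1 by 2.12 (SE 1.11, limma, adjusted p = 1).

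Pdgfrb, with 17.96, 17.65 and 18.29 in HC against 17.20, 17.80 and 17.29 in CC_s, differed over both weight losses by 0.61 (SE 0.26, 95% interval 0.02 to 1.20, limma, adjusted p = 0.36). Ly6a differed by 0.92 (95% interval -0.02 to 1.86), Dpp4 by 0.83 (-0.05 to 1.72), Pdgfra by 0.57 (-0.39 to 1.54), Cd34 by 0.23 (-0.29 to 0.75) and Pi16 by -0.02 (-0.55 to 0.52). Without the 5 low-signal libraries Dpp4 differed by 0.14, Ly6a by 0.70, Pdgfra by 0.44, Pdgfrb by 0.70, Cd34 by 0.09 and Pi16 by -0.20. Without HC 3 and HHC 3 only, Pdgfra differed by 0.09, Dpp4 by 0.40 and Pdgfrb by 0.39. Dcn differed by -0.33 (-0.98 to 0.31), and by 0.16 without the 5. Its values were 15.97, 15.62 and 15.82 in HC, all under the 16.44, 16.55 and 16.18 of CC_s, and the pair differed by -0.59 (SE 0.27, adjusted p = 0.568).

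**Figure D4:**
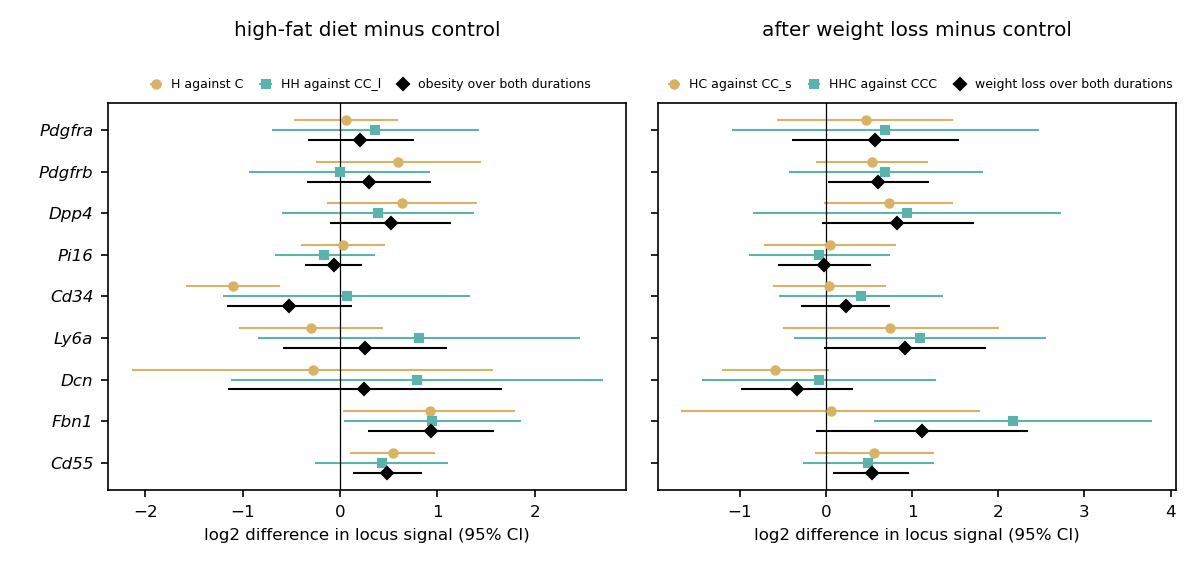
Difference in log2 locus signal with its 95% interval (bars) for each of the 9 loci in the 4 pairs of groups and over both durations, with 0 marked. The interval of Cd34 for H against C runs from -1.58 to -0.62, and those of Fbn1 and Cd55 over both durations of obesity lie above 0.

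The effects of the shorter and longer diets were compared directly. Neither comparison gave a called locus, against 0% of all loci in both, and none of the 9 had an unadjusted p under 0.05, against 5.03% (896 loci) in obesity and 1.35% (246 loci) in weight loss. An effect seen at one duration was therefore not shown to differ from the other at any of the 9 loci.

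Single regions gave no call. Of the regions of the 9 loci 20 were tested for H against C, 17 for HC against CC_s, 22 for HH against CC_l and 27 for HHC against CCC, and none was called, against 8.28%, 0%, 0% and 0% of all regions. At an unadjusted p under 0.05 there were 4, 1, 0 and 0, against 34.9%, 12%, 13.7% and 6.14%. Over both durations 27 were tested in obesity and 32 in weight loss, none was called, against 4.21% and 0.105%, and 4 and 3 had an unadjusted p under 0.05, against 29.6% and 13.1%. For the difference between durations none was called, against 0% and 0%, and 2 and 1 had an unadjusted p under 0.05, against 5.4% and 2.06%.

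The region inside Pdgfrb, at chr18:61051227-61081356, came closest after that of Cd34. It was higher in H by 0.68 (SE 0.19, limma, adjusted p = 0.0465), under the size required, and in HC by 0.55 (SE 0.22, adjusted p = 0.368), the smallest p of the regions in that pair. For HH against CC_l the smallest p was at chr18:61018103-61025170, at the edge of the Pdgfrb locus, with -0.79 (SE 0.43, adjusted p = 0.476). After the longer diet and weight loss it was at the Cd55 promoter region, chr1:130459600-130469600, with 0.58 (SE 0.25, adjusted p = 0.805), and over both weight losses at the same region with 0.45 (SE 0.16, adjusted p = 0.266).

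Of the 24 other progenitor loci 19 were tested for H against C, and 3 were called, all lower in H, against 5.73% of all loci. Creb5, a transcription factor, differed by -1.22 (SE 0.14, limma, adjusted p = 0.00845), Fmo2, a monooxygenase, by -1.38 (SE 0.32, adjusted p = 0.0399) and Col3a1, the type III collagen chain, by -1.09 (SE 0.21, adjusted p = 0.0266). Over both durations of obesity 1 of 21 tested was called, against 4.76% of all loci, Lum, a matrix proteoglycan related to decorin, which was higher by 1.63 (SE 0.41, adjusted p = 0.0256). In HC, HH and HHC none of 20, 20 and 23 tested was called, and over both weight losses none of 24. At an unadjusted p under 0.05 there were 11 of 19 for H against C and 10 of 21 over both obesity durations, against 31.3% and 31.6% of all loci. The counts were 4 of 20 in HC, 3 of 20 in HH, 1 of 23 in HHC and 6 of 24 over both weight losses, against 8.98%, 12.1%, 4.05% and 13.4%. The median difference of this list was 0.07 in H, with 11 of 19 higher, and -0.15 in HH, with 9 of 20. It was 0.15 in HC, with 12 of 20 higher, 0.20 in HHC, with 14 of 23, and 0.13 over both weight losses, with 15 of 24. Of 9 endothelial loci tested Cdh5 was higher and Vwf lower in H, by 2.89 and -1.06 (adjusted p = 0.0125 and 0.041, limma). Of 8 mesothelial loci tested Upk1b was higher and Lrrn4 lower in H, of 7 lymphocyte loci Pax5 was lower, and of 12 adipocyte loci Cfd was lower, each again against 5.73% of all loci. Cdh5 and Vwf had no promoter peak in any C or H library, and Upk1b had none in any of the 22. Their differences in H thus lie elsewhere in the loci. The median difference in H was 0.21 over the endothelial loci, with 6 of 9 higher, -0.13 over the mesothelial, with 4 of 8, -0.33 over the lymphocyte, with 1 of 7, and 0.22 over the adipocyte, with 9 of 12. The endothelial median was 0.64 in HH, with 8 of 9 higher, 0.56 in HC, with 6 of 8, and 0.14 in HHC, with 6 of 9. Over both weight losses it was 0.52, and the macrophage, mesothelial, lymphocyte and adipocyte medians were 0.27, 0.12, -0.15 and 0.02. In HH these types, in the same order, stood at -0.12, -0.40, -0.25 and -0.07. A link of these shifts with those of the 9 was not tested. Over both obesity durations Cdh5, Upk1b, Pax5 and Cfd were called in the same directions, and the lymphocyte gene Cd4 was lower by -1.11 (SE 0.32, limma, adjusted p = 0.0458), while no macrophage locus was called in any comparison.

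Last, the loci on other chromosomes whose log2 locus signal ran most like that of each gene over the 22 libraries were found among 13702 loci above the floor in all. Pdgfra ran with Igf2r (Pearson's r = 0.88) and Chsy3 (0.844), Dpp4 with Ncapd3 (0.89) and Gm13287 (0.889), and Cd34 with Rassf2 (0.887) and Crcp (0.881). Ly6a ran with Zmynd8 (0.879) and Afmid (0.865), Cd55 with Kiz (0.858) and Gm10604 (0.849), Fbn1 with Sri (0.849) and Gdf3 (0.847), Pi16 with Arap1 (0.825) and Mapk12 (0.824), and Pdgfrb with Zfp984 (0.797) and Amigo1 (0.796). Dcn had no close match, with Tlr9 (0.585) and Cacna1d (0.575) at the top. None of the 18 is one of the 9 genes or of the 24 other progenitor genes. The libraries share their signal level, so these values describe the 22 libraries only.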

How the data were processed

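ATAC-seq was made from the biotin-tagged adipocyte nuclei of epiAT in 22 mice, 1 library per animal. The authors trimmed reads with Trim Galore 0.6.6, aligned them with Bowtie2 2.4.4 to GRCm38, sorted them with SAMtools 1.13, made coverage with bedtools 2.30 and called peaks per library with SEACR 1.3, in stringent mode at the top 0.01 of covered blocks. The deposited lists give each peak a total signal, the coverage summed over its bases, and a maximum signal, the highest coverage, with no normalisation stated, so depth was not known. Their methods filter out peaks over blacklisted regions, and whether the deposited lists come after that step is not given in the sources used here.

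Peaks of different libraries that shared at least 1 bp formed 104657 regions. For loci and regions, each library was rank-mapped. The 16741 strongest loci and 30083 strongest regions of a library took the log2 total signal averaged over libraries at their rank, and all others took the floor, 14.06 or 14.01. Promoters were 2000 bp on each side of GENCODE vM21 start sites. Differences were fitted with limma 3.58.1 in R 4.3.3 (lmFit, eBayes with trend), using only libraries of the compared groups and over all features above the floor in as many libraries as the smallest group holds. A feature was called at a Benjamini-Hochberg adjusted p under 0.05 and a log2 difference above 1. The fit was tested on simulated data. Each p measures only the spread between these animals, with 2 or 3 per group.

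All 9 genes are named in the comparisons, with the strongest promoter and distal regions, called regions, the region of smallest p where none was called, and the 2 loci of likest pattern. The genes, the lists and the tests were chosen with earlier results of these data known. Alternatives were the filter, the trend, a robust fit, all libraries in 1 fit, a replicate block, each library left out, the maximum signal, shares of library signal, the strongest 20000 peaks, overlap weights and narrower flanks. Leaving out the 5 libraries of median maximum signal under 40 was added after seeing the data.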

Additional observations from a re-analysis of the deposited data

How the results depend on the processing

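Of 923 alternative values over 44 results, 867 kept their direction and their side of the threshold. The count of 1 locus called in H against C became 0 with all libraries in 1 fit, with the replicate block, with the maximum signal, with the strongest 20000 peaks, with peaks weighted by overlap, with no flank and with a flank of 5 kb, and 0 to 2 when 1 library was left out, and with the replicate block the share of all loci called fell to 2.01%. The Cd34 difference in H against C, -1.10, stayed at -1.10 with all libraries in 1 fit (adjusted p = 0.0822) and with the replicate block (adjusted p = 0.0571), and became -0.29 with the maximum signal, -0.93 with the strongest 20000 peaks, -0.80 with overlap weights, -0.15 with a flank of 5 kb, and -1.29 to -1.01 with 1 library left out. With no flank the Cd34 locus was at the floor and was not tested. With 1 library left out, called loci over both obesity durations went from 0 to 1 (Fbn1, without C 1) and called regions in HH against CC_l from 0 to 1 (one at Pi16, -1.33, without CC_l 2, where CC_l is a single library assumed to vary like HH). Over both obesity durations, 1 region, in Fbn1 intron 28, was called with the maximum signal, with all 10 controls at the floor, so that it is the region picked for that pattern and no independent support. Without the 5 low-signal libraries, 1 region, at the Ly6a promoter, was called for the difference between durations in weight loss (1.24, adjusted p = 0.00121). CCC and HHC are then single libraries, and the call rests on HHC 2, at 15.25, with the others left in this fit at the floor, 14.01.

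Signs turned at differences that did not pass the test. With the maximum signal the obesity difference was -0.28 at Pdgfrb, 0.19 at Pi16 and -0.07 at Ly6a, and the weight loss difference was -0.10 at Dpp4, 0.14 at Pi16 and -0.08 at Fbn1. The obesity difference at Cd34 was 0.49 with no flank and 0.35 with 5 kb, and its weight loss difference was -0.02 without HC 3 and HHC 3 and -0.01 with shares of library signal. Without the low-signal libraries the obesity difference was -0.03 at Ly6a and the weight loss difference 0.16 at Dcn, whose obesity difference was -0.40 with the strongest 20000 peaks. With 1 library left out, obesity differences ran from -0.15 to 0.02 at Pi16, -0.03 to 0.56 at Ly6a and -0.41 to 0.91 at Dcn, and the weight loss difference at Pi16 from -0.17 to 0.10. The region inside Pdgfrb gave -0.27 in HC against CC_s where 50% of the region had to be covered. With the strongest 20000 peaks 1 of the 9 genes had a promoter peak in all libraries and 2 had one in none. The cause of these changes was not tested. Deviations of same-numbered libraries gave 10 correlations of -0.179 to 0.189, 1 of them above 0.1. With CC_l and CCC the values are equal and opposite by construction, because each holds 2 libraries. Low values therefore cannot show whether the numbers pair animals. The block changed no call at these loci besides that of Cd34.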
